A study of Mus musculus with 4 samples.

Results

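The 10 genes described here are mast cell genes, 5 of which encode granule proteases (Mcpt4, Cma1, Cma2, Tpsb2 and Cpa3), 4 receptors or receptor chains (Mrgprb2, Kit, Fcer1a and Ms4a2) and 1 an enzyme (Hdc). They were taken by gene symbol, which gave 19 of the 45281 probes of an Illumina mouse BeadChip, an array that reads RNA as the brightness of beads. The members were picked with values of these same arrays in view, namely their low signal in the null GFP+ libraries beside that of het GFP+, and the nearness of the het GFP+ library to null GFP-, so all values of members below are descriptive and carry no test. RNA came from live cells sorted by flow cytometry from the stromal pellet of adipose tissue of mice aged 2 months. The mice carried the AdipoTrak alleles, in which the Pparg locus drives a tetracycline transactivator that switches on a nuclear GFP, so that GFP marks cells in which that locus is or was active, and the animals labelled PPARG het have this allele beside an intact copy. In the animals labelled PPARG null the other copy is floxed and was removed by Cre, either in the whole body (Sox2-Cre) or where the transactivator is active (TRE-Cre), and the labels do not say which. The 4 libraries were 2 labelled null GFP+ (numbers 1 and 3), 1 labelled het GFP+ (number 2) and 1 labelled null GFP- (number 3), all from animals given in the labels as Black 6. Which mice went into each library is not stated, so the spread between the null GFP+ libraries may be technical.

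Mast cells are tissue-resident cells of the blood lineage whose granules hold proteases and histamine bound to heparin. Most chymases, though not all, cleave after aromatic residues, tryptases cleave after basic residues, and carboxypeptidase A3 trims the ends of peptides. The cells depend on the growth factor receptor Kit, and they release their granules when antigen crosslinks IgE on the high-affinity IgE receptor, of which Fcer1a encodes the IgE-binding subunit, Ms4a2 the beta chain and Fcer1g the shared gamma chain. A separate route runs through Mrgprb2, a G protein-coupled receptor for basic peptides and drugs that is found in connective tissue mast cells of the mouse. Adipose tissue holds mast cells of this connective tissue type.

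The promoters of the members are shown as a description, with the GATA letters that factors such as Gata2 can bind. The members were chosen for a shared pattern, so that pattern is no ground for a shared regulator. Binding was not measured, and nothing is read from the shares below. RefSeq sequences of assembly GRCm38.p6 covered 8 of the 10 members. In the 250 bases before the annotated start, AGATAA or AGATAG or TGATAA or TGATAG stood on either strand in 7 of these 8 genes (all but Kit), and in 29.7% of the 27025 genes with a promoter in the table. The E-box letters CACGTG or CATGTG or CACATG, which Mitf-type factors can bind, stood in 1 of the 8, Fcer1a, and in 19.8% of all these genes. CATGTG and CACATG are the same site read from opposite strands and were counted once. The capitals mark the GATA letters in the promoters of 3 proteases and of the IgE receptor subunit, each 5′ to 3′ on the gene's strand, which is the minus strand for all 4.
Mcpt4, chr14:56062311-56062560: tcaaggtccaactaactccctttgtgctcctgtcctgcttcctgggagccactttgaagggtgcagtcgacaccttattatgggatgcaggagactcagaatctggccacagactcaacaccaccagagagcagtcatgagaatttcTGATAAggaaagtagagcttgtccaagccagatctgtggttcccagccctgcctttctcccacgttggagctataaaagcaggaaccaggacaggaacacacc
Cma1, chr14:55944676-55944925: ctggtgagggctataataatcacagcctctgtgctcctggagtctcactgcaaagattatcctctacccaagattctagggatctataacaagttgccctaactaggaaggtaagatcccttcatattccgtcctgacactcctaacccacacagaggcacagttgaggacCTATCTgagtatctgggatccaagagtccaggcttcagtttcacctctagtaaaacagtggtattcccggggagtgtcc
Cpa3, chr3:20242182-20242431: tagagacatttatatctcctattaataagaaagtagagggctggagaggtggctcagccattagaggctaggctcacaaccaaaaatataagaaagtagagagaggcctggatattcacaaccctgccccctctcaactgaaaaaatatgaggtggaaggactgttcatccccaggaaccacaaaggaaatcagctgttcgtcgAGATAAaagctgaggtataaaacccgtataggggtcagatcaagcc
Fcer1a, chr1:173227230-173227479: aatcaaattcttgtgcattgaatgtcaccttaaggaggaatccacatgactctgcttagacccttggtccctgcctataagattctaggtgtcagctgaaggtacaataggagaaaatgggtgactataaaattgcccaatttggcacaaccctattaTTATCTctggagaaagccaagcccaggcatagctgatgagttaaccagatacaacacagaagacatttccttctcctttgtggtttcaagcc
The GATA letters began 103 bases before the start in Mcpt4, 79 in Cma1, 46 in Cpa3 and 92 in Fcer1a, on the minus strand of the printed sequence in Cma1 and Fcer1a. Ms4a2 held 3 such stretches, and Mrgprb2 and Hdc 1 each.

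The targeted gene ran against the labels. By its brightest probe Pparg gave 3217 and 2479 for null GFP+ (numbers 1 and 3), 188 for het GFP+ and 209 for null GFP-, and where the probe lies relative to the deleted part is not known here, so each direction given here is by label only. Stromal genes were read in all 4 libraries, Pdgfra at 9667 to 13869 and Dcn at 42017 to 46894. The deposited intensities already shared a distribution across arrays, with a median near 120.2, and a signal of 154, called the detection signal here, is the level above which probes passed detection at p under 0.01 on the strictest of the arrays, carried over by rank. Differences are on a log2 scale after subtraction of background and addition of 16 units, over the 17379 probes detected on at least 1 array, and limma estimated the spread from the pair of null GFP+ libraries alone (1 residual degree of freedom) with moderation across probes. In bulk samples, fewer cells of a type and less RNA per cell cannot be told apart.

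All 5 protease genes read near background in the libraries labelled null GFP+ and far above it in both others. Mcpt4, the main chymase of connective tissue mast cells in the mouse, read 184 and 132 in null GFP+ libraries 1 and 3, 20898 in that labelled het GFP+ and 19475 in that labelled null GFP-. Cma1, a second chymase, read 162 and 137 against 14815 and 17583. Cma2, encoded beside Cma1 and Mcpt4 on chromosome 14, read 296 and 188 against 34037 and 34643. The null GFP+ libraries lay below both other libraries for each of these chymases, and Cma2 was the only protease above the detection signal in both of them. Tpsb2, the main mast cell tryptase, read 134 and 111 against 9574 and 9681. Cpa3, carboxypeptidase A3, read 169 and 135 against 17932 and 17212. Tpsb2 was thus below the detection signal in both null GFP+ libraries, while Mcpt4, Cma1 and Cpa3 exceeded it in library 1 only. Log2 differences, null GFP+ minus het GFP+, ran from -8.41 for Mcpt4 (standard error 0.52) to -7.92 for Cma2, with a median of -8.11 where the median over all 9975 genes tested was 0.05. Against null GFP- they ran from -8.31 for Mcpt4 to -7.95 for Cma2, with a median of -8.21, and the median over all genes was 0.02. Since at least 1 null GFP+ reading of Mcpt4, Cma1, Cpa3 and Tpsb2 was below the detection signal, these fitted values depend on the background estimate. For a gene below that signal in a whole group, only a lower limit on the deposited intensities is given, the brighter group's reading over the detection signal of 154, and for Tpsb2 it was at least 62.0-fold against het GFP+ and at least 62.7-fold against null GFP-. With Tpsb2 at its limit, the protease medians were -8.04 and -8.21. Those medians mix scales, since the Tpsb2 limit is on deposited intensities and the other proteases are fitted after background subtraction. They therefore do not show how much the limit changes the median. With no background correction, and Tpsb2 as fitted, the protease medians were -6.89 against het GFP+ and -6.88 against null GFP-. These proteases held ranks 1 to 5 by size of fall in both contrasts, which restates how they were chosen.

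**Figure D1:**
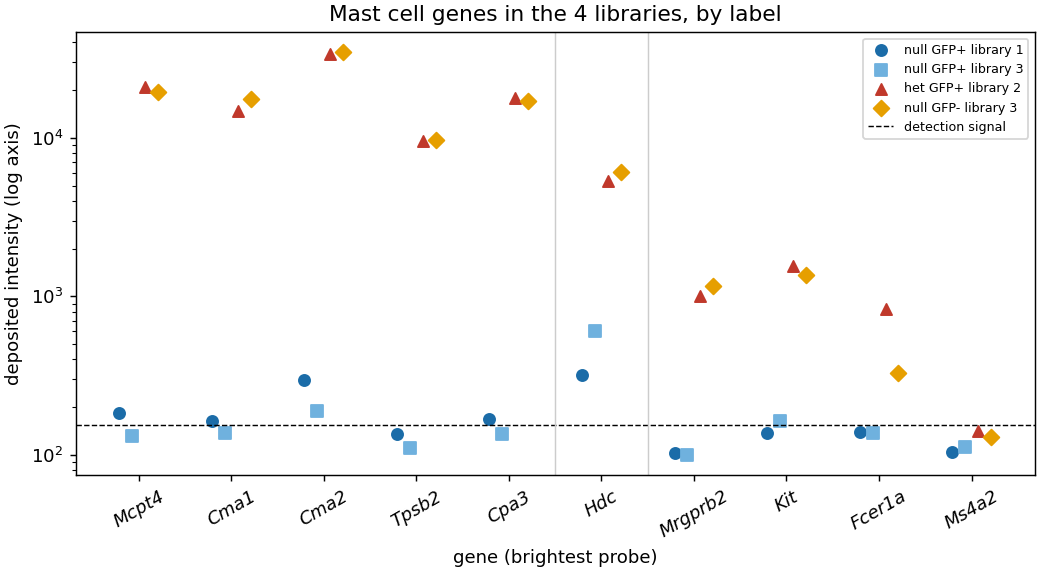
Deposited intensity (log axis) of the brightest probe of each of the 10 genes, with 1 point per library, proteases on the left, Hdc in the middle and receptors on the right, and the detection signal of 154 as a dashed line. Points are to be compared within a gene, and the het GFP+ and null GFP- points lie close together for every gene except Fcer1a, which read 829 and 327.

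The receptor genes also read lower in the libraries labelled null GFP+, and since most of their null GFP+ readings were below the detection signal, the size of their differences cannot be set against that of the proteases. Kit, the receptor tyrosine kinase for stem cell factor, read 138 and 162 in null GFP+ libraries 1 and 3, 1563 in that labelled het GFP+ and 1372 in that labelled null GFP-. Its log2 difference from het GFP+ was -4.70, and library 3 alone of the null GFP+ group was above the detection signal. Mrgprb2 read 102 and 100 against 1005 and 1156, which is at least 6.51-fold lower than het GFP+ and at least 7.49-fold lower than null GFP-. Fcer1a read 139 and 138 against 829 in het GFP+ and 327 in null GFP-, at least 5.37-fold and at least 2.12-fold lower. Neither null GFP+ library was above the detection signal for Mrgprb2 or Fcer1a. Over these 3 receptors the median fitted log2 difference was -4.70 against het GFP+ and -4.50 against null GFP-. With Mrgprb2 and Fcer1a at their limits the median was -2.70 and -2.90. These last values are the Mrgprb2 limits on deposited intensities, a different scale from the fitted values. Ms4a2, the beta chain, was not well above background on any array, at 105 and 112 in null GFP+ libraries 1 and 3, 141 in het GFP+ and 130 in null GFP-, so no difference is given.

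Hdc, which makes histamine from histidine, was with Cma2 the only member detected on all 4 arrays. For Hdc the brightest probe gave 318 and 602 in null GFP+ libraries 1 and 3, 5309 in that labelled het GFP+ and 6111 in that labelled null GFP-. The null GFP+ libraries were lower than both others and did not overlap with them. The log2 difference was -3.94 from het GFP+ (standard error 0.53) and -4.15 from null GFP-, which is 15.4-fold and 17.7-fold on the background-subtracted scale. Of the 9 members that passed the detection filter, limma called 9 lower in both contrasts at an adjusted p under 0.05, where 2.61% of the 9975 genes were called lower against het GFP+ and 2.64% against null GFP-. Tpsb2, Mrgprb2 and Fcer1a were detected on 2 arrays each and so passed only through the libraries where they are high, and all were chosen on these contrasts, so nothing is read from the count. Both contrasts share the null GFP+ libraries, and when dim probes were left in the calls were 5 of 10 against het GFP+ and 0 of 10 against null GFP-.

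Several genes had more than 1 probe, and the detected ones gave the same direction. The second Cma1 probe read 145 and 121 in null GFP+ libraries 1 and 3 against 10860 in het GFP+ and 11510 in null GFP-. The other Cpa3 probes read 164 and 118 against 15134 and 14733, and 123 and 115 against 2322 and 1908. Their log2 differences from het GFP+ were -8.31 and -6.13, so probes of a single gene were over 2 units apart on that scale. A second Fcer1a probe read 100 and 106 against 386 in het GFP+ and 173 in null GFP-, and a second Hdc probe 130 and 163 against 1146 and 819. The 14 tested probes ran from -8.41 to -3.54 against het GFP+. The remaining 5 probes, 1 each for Cma2, Tpsb2 and Ms4a2 and 2 for Kit, were detected on 0 arrays and read 90.2 to 153. The chymase genes are close relatives, as are Tpsb2 and Tpsab1, and how far a probe reads its neighbour's RNA is not known here.

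Between the library labelled het GFP+ and that labelled null GFP-, the proteases were nearly equal and 1 receptor was not. Log2 differences, het GFP+ minus null GFP-, of the 5 proteases ran from -0.25 for Cma1 to 0.10 for Mcpt4, with a median of -0.02 and a median over all genes of -0.03. Cma2 and Tpsb2 differed by -0.03 and -0.02. Mrgprb2 was at -0.22, Hdc at -0.21 and Kit at 0.20. Fcer1a was at 1.65, a 3.14-fold higher signal in the library labelled het GFP+, and its second probe was at 1.86. Of 9975 genes, 3.05% were over 2-fold apart between these libraries, and of the 9 members tested 1 was, Fcer1a, which held rank 54 by size. With 1 library on each side, no replicate stands behind these differences, and limma called 0 genes at an adjusted p under 0.05 in this contrast (349 at an unadjusted p under 0.05, and up to 5 under the other settings tried). Over all tested probes, 621 (3.57%) were over 2-fold apart between these libraries, 806 between the null GFP+ libraries, and 1941 and 2545 between het GFP+ and null GFP+ libraries 1 and 3.

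Some other genes moved with Fcer1a in that pair of libraries, and others did not. Fcer1g, the gamma chain that mast cells share with macrophages and other myeloid cells, read 2202 in that labelled het GFP+ and 794 in that labelled null GFP-, a log2 difference of 1.59. Of 10 tested macrophage markers, 9 read higher in the library labelled het GFP+ as well, over a range of log2 differences from -0.48 to 1.20, with summed intensities of 22670 and 13923. Of 10 tested neutrophil markers 7 read higher there and 3 lower, with a median log2 difference of 0.19, and 2 were over 2-fold apart. S100a9 and S100a8 were nearly equal, at -0.01 and 0.02. The granule enzyme gene Mpo, named after its value was seen, was at 2.31, further apart than Fcer1a. Elane, another such gene, read 241 in that labelled het GFP+ and 115 in that labelled null GFP-. The latter is below the detection signal, so the size of the Elane difference is not compared. All 5 tested skeletal muscle markers read higher in the library labelled het GFP+ too, by 1.68 to 3.55, while 4554 of all 9975 genes did. Prss34, a protease of basophils, went the other way at 348 and 733, a log2 difference of -1.32, and the other tested basophil marker, Cd200r3, read 232 and 243. Their part in the Fcer1a difference was not tested.

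**Figure D2:**
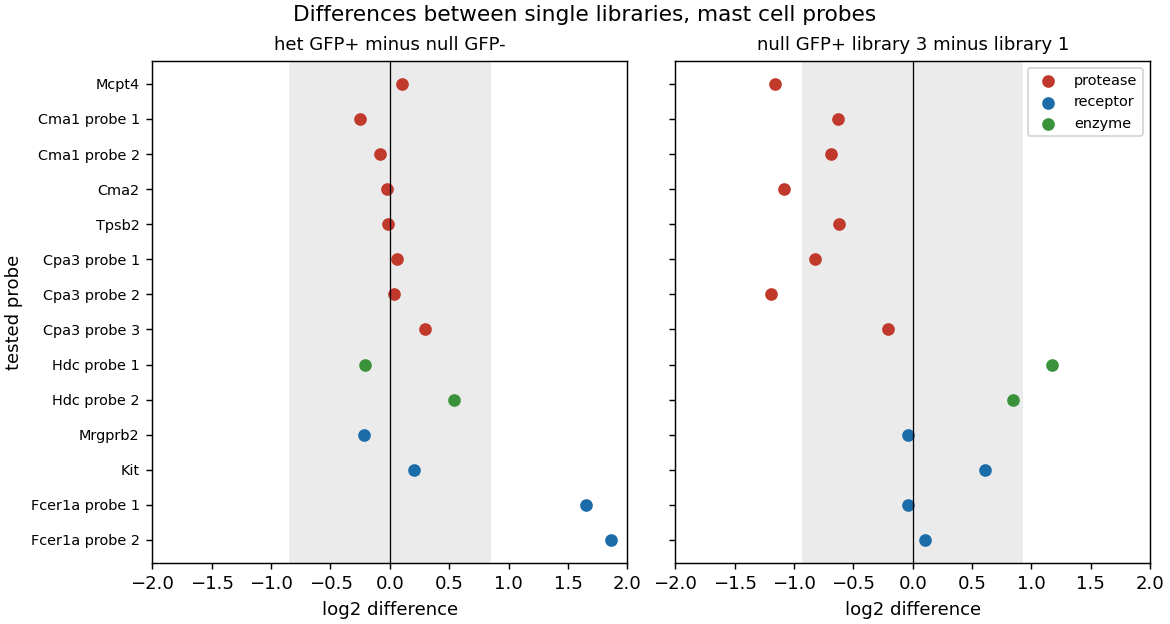
Log2 difference of each of the 14 tested probes between single libraries, het GFP+ minus null GFP- on the left and null GFP+ library 3 minus library 1 on the right, coloured by role, with the range that holds 95% of all tested genes in grey. On the left only the Fcer1a probes, at 1.65 and 1.86, lie outside it, and on the right all 8 protease probes lie below 0 and both Hdc probes above.

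Between the null GFP+ libraries, Cma2 and Hdc, the members above the detection signal in both, differed in opposite directions. All 8 tested protease probes, of 5 genes, were lower in library 3 than in library 1, where 4718 of all 9975 genes were lower. The gene values ran from -1.16 for Mcpt4 to -0.62 for Tpsb2 on the log2 scale. Cma2, the 1 protease above the detection signal in both, differed by -1.09. Hdc went the other way, at 1.18 for its brightest probe and 0.84 for the second, and Kit was at 0.61. Mrgprb2 and Fcer1a, both below the detection signal, were at -0.04. Over 2-fold differences between these libraries were seen in 3.95% of all genes. For the other 4 proteases at least 1 of the readings was below the detection signal, where values have no sure order, so Cma2 and Hdc are the members measured on both sides.

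Genes of the wider mast cell programme were compared in the same way. The lists were chosen with earlier results of these data known. Of 71 further genes, 64 were on the array and 39 passed the detection filter, of which limma called 16 lower and 0 higher against het GFP+ at an adjusted p under 0.05 and 23 did not pass, where 2.61% and 1.31% of all genes were called lower and higher. The median log2 difference was -1.47, against 0.05 over all genes. Against null GFP- 18 were lower, 0 were higher (1.3% of all genes were) and 21 did not pass, with a median of -1.74. With no filter on dim probes these counts of lower genes were 4 and 0. Of the 16 genes called against het GFP+, 11 were detected on no more than 2 arrays and 12 were below the detection signal in both null GFP+ libraries, so most entered the test through the libraries where they are high, and nothing is read from the counts about the programme as a whole. Many of these genes also serve other leukocytes.

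All 4 tested genes among the other granule proteases were called lower against het GFP+, where 2.61% of all genes were. Of these 4, 3 (Tpsab1, Prss34 and Ctsg) passed the filter only through the het GFP+ and null GFP- libraries. Tpsab1, the second mast cell tryptase, read 113 and 108 in null GFP+ libraries 1 and 3, 668 in het GFP+ and 455 in null GFP-, at least 4.33-fold lower than het GFP+. Prss34 was at least 2.26-fold lower and Ctsg, cathepsin G, at least 1.77-fold. Ctsc, the peptidase that activates granule proteases, differed by -2.32 on the log2 scale (limma adjusted p = 0.0249, standard error 0.29). The mucosal mast cell proteases Mcpt1 and Mcpt2, the basophil protease Mcpt8, and Mcpt9 were detected on 0 arrays, at 90.2 to 120 in all 4 libraries. Mcpt1 and Mcpt2 had 1 probe each. Undetected probes also occurred for bright genes, with 1 Cma2 probe at 111 and 1 Tpsb2 probe at 93.9 in het GFP+. Ms4a2, a gene of connective tissue mast cells, was likewise undetected. These readings therefore cannot show whether the mucosal genes were expressed.

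Of 7 tested genes of granule matrix, amine transport and secretion, 0 passed limma against het GFP+. Against null GFP- 2 were called lower, where 2.64% of all genes were, and 1 of these 2 was detected on no more than 2 arrays. Srgn, the core protein of granule proteoglycans, read 247 and 207 in null GFP+ libraries 1 and 3 against 532 in het GFP+ and 665 in null GFP-, a log2 difference of -1.73 from het GFP+ (limma adjusted p = 0.0660, not passed) and of -2.11 from null GFP- (limma adjusted p = 0.0410, passed). The granule membrane gene Cd63, also used by stromal cells, and the membrane fusion gene Stx4a were at 0.34 and -0.39 (adjusted p = 0.672 and 0.580 from limma). Among 6 tested receptors and chains, 2 were called lower against het GFP+, where 2.61% of all genes were. Both passed the filter only through the het GFP+ and null GFP- libraries, and nothing is read from the count. The adenosine receptor gene Adora3 was at least 2.82-fold lower, and Cd200r3, a receptor of mast cells and basophils, read 101 and 115 against 232. Fcer1g was at -4.06 but its null GFP+ readings of 338 and 158 were far apart, and limma gave an adjusted p of 0.0737 with a standard error of 0.78, which did not pass. Il3ra, a receptor subunit for interleukin-3, was at 0.16 (adjusted p = 0.844 from limma).

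Signalling genes below the receptors were called lower in 4 of 7 cases against het GFP+, where 2.61% of all genes were. Of these 4, 3 (Btk, Inpp5d and Plcg2) passed the filter only through the het GFP+ and null GFP- libraries, and nothing is read from the count. Lat2, an adaptor of the IgE receptor, read 187 and 157 in null GFP+ libraries 1 and 3 against 1006 in het GFP+ and 1231 in null GFP-, a log2 difference of -3.54 (limma adjusted p = 0.0138, standard error 0.34). The kinase gene Btk was at least 2.13-fold lower, Inpp5d, the phosphatase SHIP that restrains the pathway, at least 1.82-fold and Plcg2, a phospholipase, at least 1.88-fold. The kinase gene Fyn and the transcription factor gene Stat5a, at -0.89 and 0.51, missed the threshold (limma adjusted p = 0.432 and 0.524).

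Of 6 tested transcription factors, 3 were called lower against het GFP+, where 2.61% of all genes were. Of these 3, Lyl1 passed the filter only through the het GFP+ and null GFP- libraries. Ikzf1 was below the detection signal in both null GFP+ libraries, and nothing is read from the count. Gata2, needed for mast cell development, read 689 and 611 in null GFP+ libraries 1 and 3 against 2233 and 2316, a log2 difference of -1.94 (limma adjusted p = 0.0354, standard error 0.28). It was well above background in all 4 libraries, unlike the proteases other than Cma2. Ikzf1 and Lyl1, factors of the blood lineage, were at least 3.08-fold and at least 2.02-fold lower. Tal1 and Cebpa, at -1.17 and 0.99, missed the threshold (limma adjusted p = 0.119 and 0.272). Both Gata1 and Mitf were on the array and were not detected.

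Of 9 tested genes of lipid mediators and cytokines, 3 were called lower against het GFP+, where 2.61% of all genes were. Of these 3, Alox5 and Il4 passed the filter only through the het GFP+ and null GFP- libraries, and nothing is read from the count. Alox5, which makes leukotrienes, was at least 1.70-fold lower, and Alox5ap, its activating protein, differed by -3.00 (limma adjusted p = 0.0454, standard error 0.48). Il4, a cytokine of mast cells and basophils, read 102 and 113 in null GFP+ libraries 1 and 3 against 445 in het GFP+ and 564 in null GFP-, at least 2.88-fold lower than het GFP+. The chemokine gene Ccl2 and the leukotriene C4 synthase gene Ltc4s, at -0.14 and -0.32, missed the threshold (limma adjusted p = 0.880 and 0.843).

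**Figure D3:**
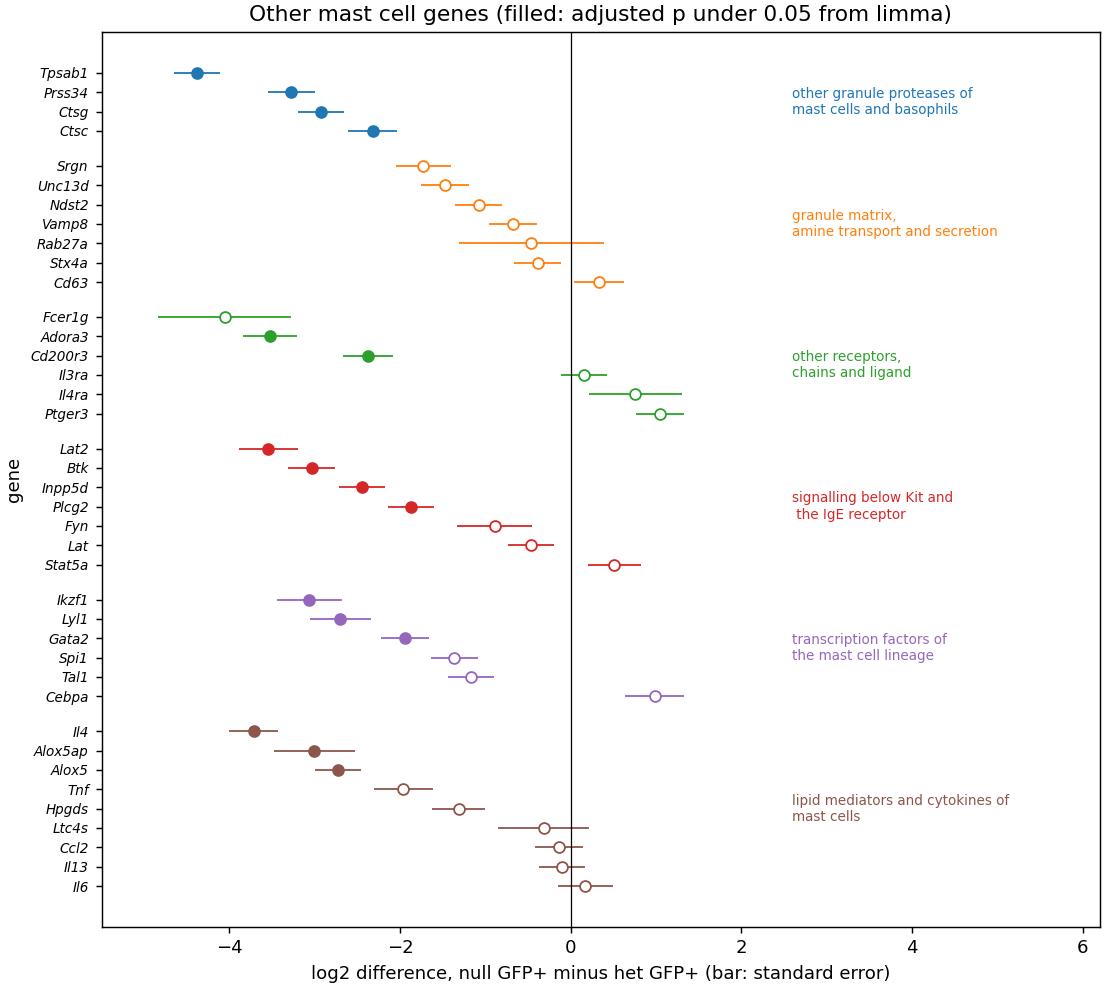
Log2 difference, null GFP+ minus het GFP+, with its standard error from limma, of the 39 tested genes of the wider mast cell lists, grouped by role. Filled points have an adjusted p under 0.05, which 16 genes have, all of them below 0.

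The mast cell genes were not alone in separating the libraries. Of 10 tested neutrophil markers, limma called 9 lower against het GFP+, where 2.61% of all genes were called lower and 1.31% higher. The summed intensity of the neutrophil markers was 1521 and 1680 in null GFP+ libraries 1 and 3 against 31031 in het GFP+ and 29664 in null GFP-. The granulocyte genes S100a9, at least 40.9-fold lower, and S100a8, at -7.28 on the log2 scale, led them. Of 10 macrophage markers 7 were lower, with sums of 4764 and 2537 against 22670 and 13923, led by Folr2 at -4.33 and Cd163 at least 4.85-fold lower, and 4 of 5 genes of all leukocytes were lower, led by Coro1a and Laptm5 at -3.26 and -3.21. Endothelial and adipocyte markers that passed went the other way, with 5 of 8 and 3 of 6 tested genes higher and 3 of each list not passing. The endothelial sums were 10705 and 8985 against 7186 and 5208, and the adipocyte sums 38894 and 48088 against 19278 and 23503. All 8 endothelial markers were over 2-fold apart from het GFP+, and the direction of those that did not pass is not given here. The adipocyte sums were mostly Lpl, at 36121 and 40207 against 18742 and 22920. Robo4 and Cldn5 led the endothelial markers at 2.94 and 2.89, and Plin4 and Adipoq the adipocyte markers, at least 13.2-fold and at least 10.7-fold higher than het GFP+. Skeletal muscle markers were lower in 5 of 5 genes against het GFP+ and in 1 of 5 against null GFP-, with Acta1 at 1442 in that labelled het GFP+ and 208 in that labelled null GFP-. Of 8 stromal markers 1, Pi16, was lower at -1.97. In the T and NK cell, B cell, eosinophil and erythroid lists 1 gene each was tested, of which 0 passed, and both tested basophil markers were lower. S100a9, Cd163, Acta1, Plin4, Adipoq and both basophil markers were detected on 2 arrays each, so they passed the filter only through the libraries where they are high. Nothing is read from these marker counts. The part of these other cell types in the mast cell values was not tested.

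The genes whose profile over the 4 libraries lay nearest to that of the members came from none of the wider mast cell lists. Nearness was the Euclidean distance between a gene's log2 values, centred on their mean, and the median of the tested members. The nearest was S100a9 at a distance of 0.87, followed by Retnlg at 1.09, S100a8 at 1.36, Ltf, and Ngp at 2.55, all genes of neutrophils. Samsn1, Camp, Sla, Il1b, Clec10a, Bmp3 and Fcna completed the nearest 12, at 3.13 to 3.58. S100a9 read 6318 in het GFP+ and 6348 in null GFP-, and S100a8 read 11929 and 11799. The distance was not scaled, so it depends on the size of a fall as well as on its shape. The members were chosen on these same values and fell far, which holds genes with smaller falls at a distance. S100a9, Retnlg, Ltf and Ngp were detected on 2 arrays each and were below the detection signal in both null GFP+ libraries. Over 4 libraries such likeness allows no test, and nothing is read from which lists the nearest genes came from.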

How the data were processed

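RNA of sorted adipose cells was read on Illumina Mouse-6 V2 BeadChips. The authors deposited linear probe intensities, already on a shared distribution (at most 0.380% apart by rank), by a normalization not given in the sources used here. A second deposited table holds detection p-values and 4 signal columns whose names match no label. The signals were not used, and p-values served only as the number of arrays with p under 0.01.

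Background (mean 108, SD 13.6, from normexp paired by rank with the detection p-values) was removed, 16 units were added and the log2 values were quantile-normalized. Of 45281 probes, 34885 carried 1 gene symbol, 18 several and 10378 none, and 34807 were found in RefSeq (GRCm38.p6). A gene was represented by its brightest tested probe. Contrasts were fitted with limma 3.58.1 in R 4.3.3 over 3 groups, two-sided, with Benjamini-Hochberg adjustment over 17379 probes. Lower limits ("at least") were taken on the deposited intensities, a choice made after values were seen, since limits after background subtraction were larger and moved with the background estimate. The single het and null GFP- libraries were assumed to vary like null GFP+. On simulated data for null GFP+ against het GFP+ (17379 probes), 18.4% of changes of 2 on the log2 scale and 97.2% of those of 4 were recovered, and 7.26% of calls were false.

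Members and lists were chosen with earlier results of these data known. Named genes were all members, Pparg, up to 6 genes of each further list that passed against het GFP+ and 2 that did not, up to 2 per marker list, and the 12 nearest genes (Srgn, Mcpt1, Mcpt2, Mcpt8, Mcpt9, Gata1, Mitf, Pdgfra, Dcn, Mpo and Elane were added after their values were seen). Protein sequences were not compared, since none were at hand.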

Additional observations from a re-analysis of the deposited data

How the results depend on the processing

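No paired analysis was possible because only 1 number is shared between groups (null GFP+ 3 and null GFP- 3). Every median of the members against null GFP+ kept its direction under the settings tried, and its size moved. With no background correction the protease median was -6.89 against het GFP+ and -6.88 against null GFP-, and the receptor median -3.31 and -3.20. Under normexp with offset 50 that ignored the detection p-values these were -7.27, -7.26, -3.74 and -3.54, and with the offset of 50 alone the receptors were at -4.01 and -3.85 and the proteases at -7.60 against null GFP-. Without null GFP+ replicate 1 or 3 the receptor median lay between -5.01 and -4.40 against het GFP+ and between -4.81 and -4.20 against null GFP-. The receptor median of het GFP+ minus null GFP- was 0.19 with no background correction, 0.19 with that normexp variant and 0.20 with the offset of 50. Fcer1a against null GFP- moved from -2.34 to -1.24 with no background correction, and its het GFP+ minus null GFP- difference from 1.65 to 1.34.

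With no filter on dim probes, where 19057 genes were tested, 39 genes were lower against het GFP+ and 0 against null GFP-, and of the wider mast cell genes 4 and 0. Members called fell from 9 of 9 to 5 of 10 and 0 of 10. The count lower against null GFP- was 406 with the mean of all probes of a gene and 402 with that normexp variant. The methods' t-test, which has 1 degree of freedom, called 3 genes lower in each contrast after Benjamini-Hochberg adjustment. Of these, 0 were members and 0 were wider mast cell genes. It called 10 and 11 of the wider mast cell genes lower, over 2-fold at an unadjusted p under 0.05. Probes over 2-fold apart between het GFP+ and null GFP- numbered 193 with no background correction and 252 with that normexp variant, against 189 and 258 between the null GFP+ libraries, 909 and 1140 between null GFP+ library 1 and het GFP+, and 1224 and 1494 between library 3 and het GFP+. Of the 12 nearest genes, 7 were shared with no background correction. The cause of these shifts was not tested. Signal near background limits the low readings of the null GFP+ libraries, and there are too few arrays for close estimates.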
